A study of Mus musculus with 8 samples.

Results

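The NF-kB subunits and their feedback inhibitors, the arm that signals downstream of CD40 and BAFF, were taken by symbol from the gene table and the splicing tables. They comprised 10 genes of 39017, namely the 5 subunits Nfkb1, Nfkb2, Rel, Rela and Relb, and the 5 inhibitors Nfkbia, Nfkbib, Nfkbie, Tnfaip3 and Bcl3. All 10 passed the filter on low values, a mean normalized count of at least 10. RNA-seq was performed on iGBs, which are splenic B cells of C57BL6/J mice that take on a germinal center-like state in culture. They were grown on 40LB cells, an irradiated feeder line that presents CD40L and BAFF, with IL-4 at 1 ng/mL, and harvested by elutriation at day 4. The 4 Prmt5-null libraries came from Prmt5 F/F Cγ1-cre mice (numbered 10617, 10618, 10770 and 10771), and the 4 control libraries from Cγ1-cre mice with unfloxed Prmt5 (CTRL-10650, CTRL-10370, then CTRL-10596 and CTRL-10597). Both genotypes thus carried the Cre allele and received the same feeders and cytokine. Cγ1-cre acts only once a B cell is activated and transcribes the Cγ1 locus, so the deletion occurs during the culture and undeleted cells can remain. The study used mice a few months old of both sexes, and neither the age nor the sex behind a given library is stated in the sources used here.

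NF-kB dimers are held in the cytoplasm by IκB proteins until a receptor such as CD40 triggers IκB phosphorylation and decay. In the canonical route the IKK complex releases dimers of Rela, Rel and p50, the product of Nfkb1. In the alternative route, which CD40 and the BAFF receptor engage in B cells, NIK and IKKα drive processing of the Nfkb2 product p100 to p52, the partner of Relb. Many genes that restrain the pathway, including Nfkbia, Nfkbie, Nfkb2 and Tnfaip3, are themselves NF-kB targets, which is why they are called feedback inhibitors.

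The promoters of these genes are where that feedback would be read, so the κB-like stretches in them are shown first. RefSeq promoter windows of GRCm38.p6, running from 250 bases before to 50 after a transcript start, were found for 8 of the 10 members (11 windows); Nfkb1 and Relb had no entry. A match to the general κB consensus, read on both strands, was present in the windows of 6 of the 8 (Bcl3, Tnfaip3, Rel, Nfkbia, Nfkbie and Nfkb2), against 9.55% of the 27025 genes with a window. Overlapping matches were counted separately, which gave 12 match positions to the consensus. The following stretches are from 5 members, given on the strand of the gene, with the consensus match in capitals.
Nfkbia, chr12:55492657-55492686, minus strand: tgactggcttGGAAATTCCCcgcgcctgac
Tnfaip3, chr10:19015516-19015545, minus strand: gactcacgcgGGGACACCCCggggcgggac
Tnfaip3, chr10:19015403-19015432, minus strand: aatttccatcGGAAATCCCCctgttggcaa
Nfkbie, chr17:45555584-45555613, plus strand: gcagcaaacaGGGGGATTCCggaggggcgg
Rel, chr11:23771042-23771071, minus strand: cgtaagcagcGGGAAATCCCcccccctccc
Nfkb2, chr19:46304688-46304717, plus strand: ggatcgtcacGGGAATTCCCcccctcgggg
The Nfkbia match began 29 bases before the transcript start. Those of Tnfaip3 began 125 and 12 bases before it, that of Nfkbie 106, that of Rel 92 and that of Nfkb2 39. A match is a description of letters and does not show that a factor binds there. Members that rose and members that did not pass the test below both carried one.

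The libraries were deep and carried the markers of the labelled cell type. Between 36731721 and 50366174 reads fell on genes (median 44996131). Prmt5, the deleted gene, averaged 11774 ± 908 (SD, n = 4) normalized counts in control and 1538 ± 436 (SD, n = 4) in Prmt5-null iGBs, a log2 fold change of -2.98 ± 0.17 (SE, limma adjusted p = 6.1e-06). The summed count of 10 B cell markers was 175070 to 201640 in control and 173560 to 211070 in Prmt5-null libraries. Among these Cd79a, a chain of the B cell receptor, was lower (adjusted p = 0.00033) and Cr2, a complement receptor, higher (adjusted p = 0.0014). The 6 germinal center markers summed to 20984 to 26447 in control and 27708 to 28897 in Prmt5-null libraries, and the 5 plasma cell markers to 29920 to 45657 and 23641 to 31174. The 10 T cell markers summed to 288 to 365 in control and 129 to 271 in Prmt5-null libraries, without overlap, and the 9 myeloid markers to 127 to 242.5 and 194 to 312. Cd3e, S100a8 and S100a9 were at 0 in every library, and the myeloid gene Emr1 was higher (log2 0.70, limma adjusted p = 0.042). Fibroblast genes were present and tended higher without Prmt5. Of 16 listed, 13 were tested, and all 13 had a higher mean in Prmt5-null libraries, beside 50.4% of all tested genes. Of these, 3 (Col3a1, Col1a2 and Sparc) passed an adjusted p of 0.05, beside 6.51% of all tested genes that were higher at that threshold. The part of these marker differences in the results on NF-kB genes was not tested.

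The inhibitors Tnfaip3, Nfkbia and Nfkbie rose without Prmt5, and no subunit passed the test. Values are the authors' size-factor normalized counts, and differences are on the log2(normalized count + 1) scale from limma, fitted over 16250 genes. At an adjusted p below 0.05, 3 of the 5 inhibitors (Tnfaip3, Nfkbia and Nfkbie) were higher and none lower, beside 6.51% of all tested genes higher and 7.33% lower (13.8% in all). With the added requirement of a 1.5-fold change, Tnfaip3 and Nfkbia remained, 2 of 10 members, beside 3.49% of all genes higher, 2.99% lower and 6.48% in either direction. For the same 3 genes the 4 Prmt5-null values lay above the 4 control values without overlap, beside 9.67% of all genes (19.8% in either direction). At any p, 4 of the 5 subunits and 4 of the 5 inhibitors had a higher mean, beside 50.4% of all genes. The median log2 fold change was 0.30 over the inhibitors, 0.01 over the subunits and 0.00 over all genes tested, of which the median absolute value was 0.19. In bulk RNA, fewer cells of a type and less RNA per cell cannot be told apart.

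**Figure D1:**
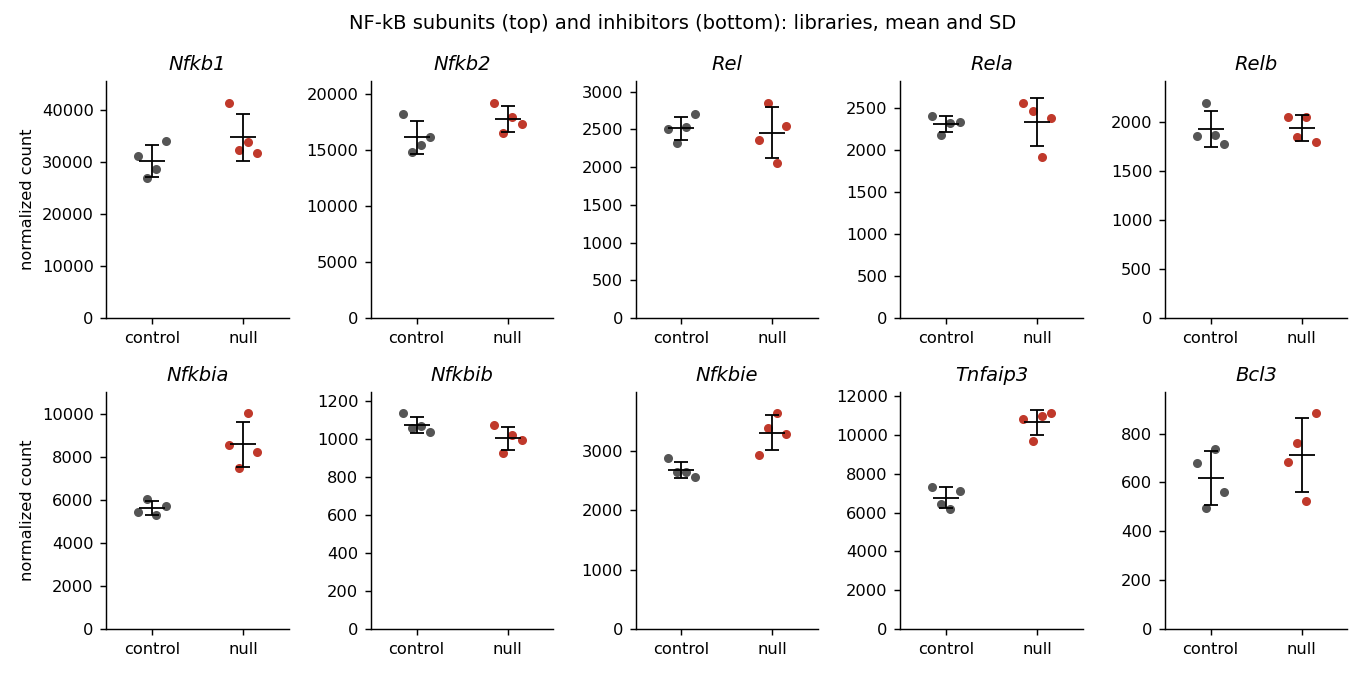
Normalized counts (linear axes from 0) of the 5 subunits (top) and 5 inhibitors (bottom) in the 4 control (grey) and 4 Prmt5-null (red) libraries, with mean and SD. Only the Nfkbia, Nfkbie and Tnfaip3 panels show groups that do not overlap, all higher in Prmt5-null iGBs.

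Tnfaip3 encodes A20, a ubiquitin-editing enzyme that shuts off signaling upstream of the IKK complex (ENSMUSG00000019850, GRCm38 chr10:19000910-19015657, minus strand). Its normalized count was 10806, 9687, 10989 and 11116 in Prmt5-null libraries 10617, 10618, 10770 and 10771, and 7328, 6450.4, 6207 and 7092 in CTRL-10650, CTRL-10370, then CTRL-10596 and CTRL-10597. The lowest Prmt5-null library thus stood well above the highest control. The mean rose from 6769 ± 527 to 10649.5 ± 654 (SD, n = 4 each), a 1.57-fold change (log2 0.65 ± 0.08, SE, limma adjusted p = 0.00034, exact two-sided permutation p = 0.0286, the smallest that 4 against 4 allows).

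Nfkbia encodes IκBα, the rapidly resynthesized inhibitor that retrieves canonical dimers from DNA (ENSMUSG00000021025, chr12:55489410-55492647, minus strand). Prmt5-null libraries, in the order of libraries used for Tnfaip3, gave 8583, 7514, 10050.5 and 8252, and controls 5455, 6050.1, 5320.0 and 5721. Here the Prmt5-null spread was larger, and library 10770 was the highest. The mean went from 5637 ± 322 to 8599.6 ± 1066 (SD, n = 4 each), 1.52-fold higher (log2 0.60 ± 0.09, SE, limma adjusted p = 0.0014, exact permutation p = 0.0286). That fold sits close to the 1.5-fold threshold, and without library 10770 or without CTRL-10596 only 1 member kept both criteria.

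Nfkbie encodes IκBε, an inhibitor prominent in B cells that mostly holds Rel and Rela (ENSMUSG00000023947, chr17:45555703-45563169, plus strand). Its counts were 2922, 3387, 3631 and 3276 in Prmt5-null and 2875, 2646, 2647 and 2552 in control libraries. Library 10617 lay only just above CTRL-10650. The difference was 1.23-fold (log2 0.30 ± 0.08, SE, limma adjusted p = 0.032, exact permutation p = 0.0286). This call was the least firm of the 3: adjusted p reached 0.086 when 1 library was left out, and it missed 0.05 in 6 of those 8 fits.

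Nfkbib and Bcl3 did not pass the test. Nfkbib encodes IκBβ, a slower turning-over inhibitor (ENSMUSG00000030595, chr7:28758251-28767512, minus strand), and gave 1071, 923, 1019 and 990.2 in Prmt5-null against 1133, 1056, 1069 and 1033 in control libraries. The groups overlapped, with a log2 difference of -0.10 ± 0.08 (SE, limma adjusted p = 0.45). Bcl3 is an atypical nuclear IκB that partners p50 and p52 (ENSMUSG00000053175, chr7:19808462-19822770, minus strand). It was the least abundant and most scattered member, with 681, 763, 524 and 883 against 681, 493, 736 and 559. Its log2 difference was 0.20 with a 95% confidence interval from -0.17 to 0.56 (limma adjusted p = 0.47), so a change of the size seen for Nfkbie was within that interval.

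Among the subunits, Nfkb1 (p105/p50, ENSMUSG00000028163, chr3:135584655-135691547, minus strand) gave 41493, 32315, 33853 and 31699 normalized counts in Prmt5-null and 31246, 27046, 28765 and 34119 in control libraries. Library 10617 was the highest and the groups overlapped through CTRL-10597 (log2 difference 0.20, 95% confidence interval -0.03 to 0.43, limma adjusted p = 0.24). Nfkb2 (p100/p52, ENSMUSG00000025225, chr19:46304320-46312385, plus strand) gave 19215, 16508, 17974 and 17295 against 18193, 14776, 15475 and 16129.9. It was likewise a little higher on average without passing (log2 0.14, interval -0.04 to 0.32, limma adjusted p = 0.30). Reads from 18.1% of its merged exon bases, which opposite-strand genes share, from 16.4% of those of Nfkbib and from 6.51% of those of Bcl3, cannot be assigned with certainty because the strand setting of the counting was not given in the sources used here.

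Rela, Rel and Relb, which carry transactivation domains, had differences near 0. Rela (p65, ENSMUSG00000024927, chr19:5637483-5648130, plus strand) gave 2561, 2456, 1913 and 2377 in Prmt5-null and 2402, 2182, 2320.4 and 2325 in control libraries. Both the lowest and the highest value were in Prmt5-null libraries (log2 difference 0.00, 95% interval -0.20 to 0.21, limma adjusted p = 0.98). Rel (c-Rel, ENSMUSG00000020275, chr11:23736847-23770970, minus strand) gave 2356, 2854, 2055 and 2550.3 against 2503, 2315, 2532 and 2698. Its Prmt5-null values again bracketed the controls (log2 -0.04, interval -0.26 to 0.18, limma adjusted p = 0.82). Relb (ENSMUSG00000002983, chr7:19606217-19629438, minus strand) gave 2054, 1842, 2051 and 1797 against 1859, 2196, 1869.8 and 1775 (log2 0.01, interval -0.18 to 0.20, limma adjusted p = 0.96). The intervals of these 3 subunits therefore left out a rise of the size fitted for Nfkbia.

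**Figure D2:**
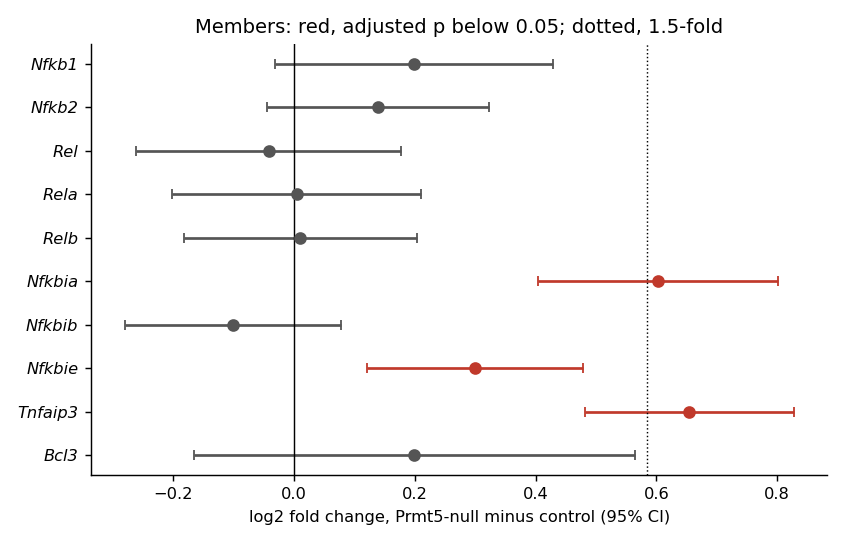
Log2 fold change of each member, Prmt5-null minus control, with its 95% confidence interval from limma (n = 4 per genotype); the dotted line marks 1.5-fold and red points have an adjusted p below 0.05. Tnfaip3, Nfkbia and Nfkbie stand to the right of 0, while the 5 subunits, Nfkbib and Bcl3 have intervals that cross it.

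Counts per kilobase of merged exons allowed levels to be set beside each other. In control iGBs the order was Nfkb2 (3522 ± 322 normalized counts per kb, SD, n = 4), Nfkbia (3501 ± 200), Nfkb1 (2512 ± 255), Tnfaip3 (937 ± 73), Nfkbie (880.1 ± 45), Rela (751 ± 29.9), Relb (495.5 ± 47.8), Nfkbib (494.7 ± 19.7), Rel (336.5 ± 21) and Bcl3 (249 ± 44.9). The ranges over libraries overlapped for Nfkb2 and Nfkbia, for Tnfaip3 and Nfkbie, and for Relb and Nfkbib; other neighbours in that order were apart. In Prmt5-null iGBs Nfkbia, at 5341 ± 662 per kb, stood first and its range of 4667 to 6243 did not meet that of Nfkb2, 3601 to 4192. This order rested on the length used. On the longest transcript the ranges of Nfkbia and Nfkb2 were apart in control (3371 to 3834 and 3842 to 4730.0) and met in Prmt5-null iGBs (4761 to 6369 and 4292 to 4996). The place of Nfkb1 also rested on it: its merged exons span 12061 bases but its longest transcript 4149, and on the latter length it was the most abundant member in both genotypes (7302 and 8397 per kb).

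**Figure D3:**
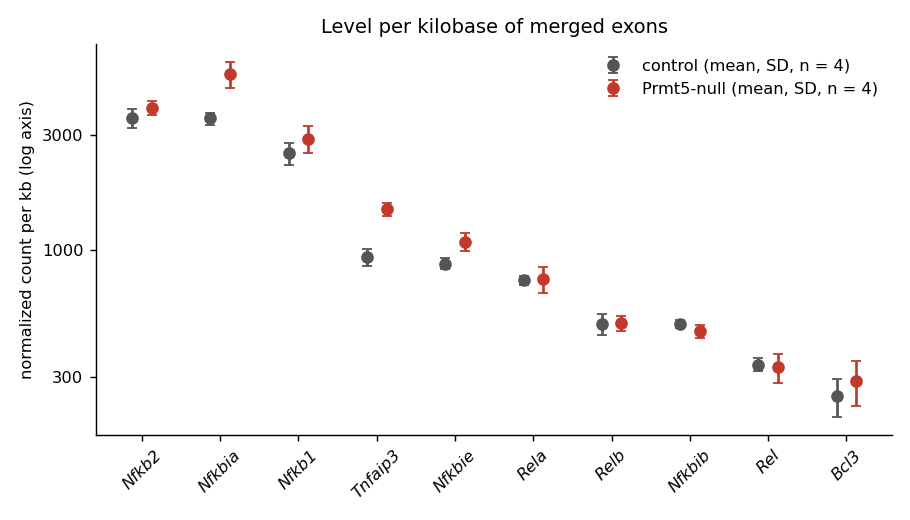
Normalized count per kilobase of merged exons (log axis) of each member, mean and SD of 4 libraries per genotype, ordered by the control mean. The p100 and p105 genes and Nfkbia lead, and Nfkbia moves above Nfkb2 in Prmt5-null iGBs.

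Nfkbia was a larger part of the 3 IκB transcripts in each Prmt5-null library than in any control. Of their summed per-kb level, Nfkbia made up 69.8% to 73.5% in control and 75.2% to 79.0% in Prmt5-null libraries, without overlap. The share of Nfkbib was 9.52% to 10.8% and 5.94% to 7.28%, and that of Nfkbie 17.0% to 19.4% and 14.1% to 17.9%, the last with overlap. Shares of a common sum fall when another part rises, so they are not losses of transcript. The count of Nfkbie was higher (log2 0.30, limma adjusted p = 0.032) and that of Nfkbib did not pass (limma adjusted p = 0.45). Among the 5 subunits the shares were alike in range: Nfkb2 averaged 46.2% in control and 46.4% in Prmt5-null libraries, Nfkb1 32.9% and 34.5%, and Rela 9.88% and 9.09%.

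The libraries also differed along an axis that did not separate the genotypes. The second principal component (25.8% of variance) placed 10617, 10618, CTRL-10596 and CTRL-10597 on one side and the other 4 libraries on the other, each side holding 2 libraries per genotype. The sides follow the sign of a score taken from these same values. Library 10771 (-3.018) and CTRL-10596 (5.582) fell on different sides but lay close together, on a range of -28.71 to 37.69. The study ran 2 experiments, but no label ties a library to one. Within the sides the log2 difference was 0.62 and 0.68 for Tnfaip3, 0.54 and 0.66 for Nfkbia, and 0.28 and 0.32 for Nfkbie. The difference changed sign between sides for Rela (0.11 and -0.10) and Relb (0.09 and -0.07), with 2 libraries per genotype on each side and no test.

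Feeder RNA was set beside these members because 40LB cells are fibroblasts that carry CD40L and BAFF. The summed fibroblast markers were 13627, 7947.5, 11136 and 9682.7 normalized counts in Prmt5-null libraries 10617, 10618, 10770 and 10771, and 9149.7, 5283.3, 6429.1 and 7679.8 in CTRL-10650, CTRL-10370, then CTRL-10596 and CTRL-10597. The Prmt5-null libraries were thus higher on the whole, with overlap between 7947.5 (library 10618) and 9149.7 (CTRL-10650). In those 2 libraries Tnfaip3 was 9687 and 7328, Nfkbia 7514 and 5455, and Nfkbie 3387 and 2875. The part of feeder RNA in the differences was not tested.

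**Figure D4:**
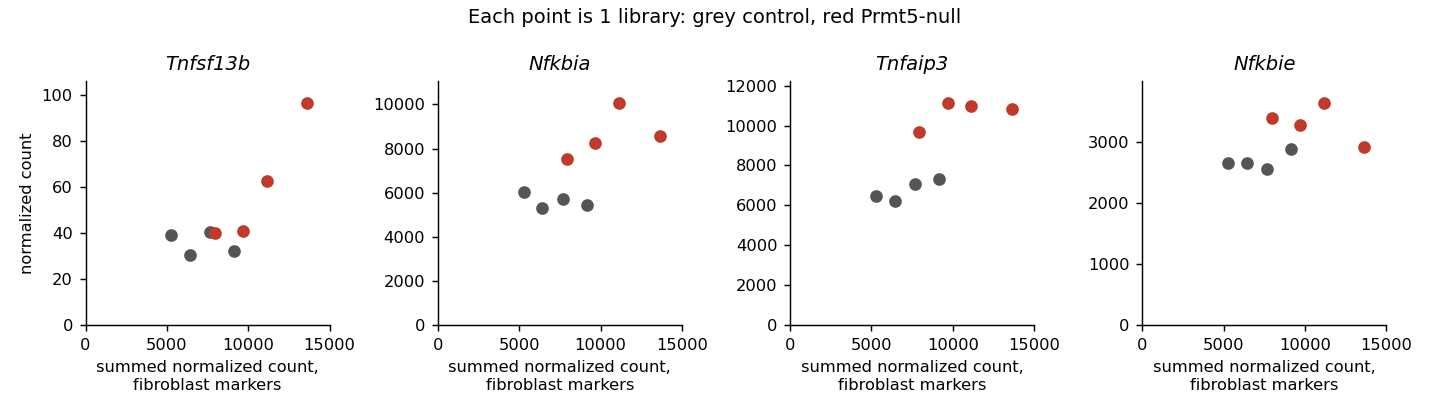
Normalized count of Tnfsf13b (BAFF) and of the 3 higher inhibitors against the summed normalized count of 16 fibroblast markers, 1 point per library (grey control, red Prmt5-null). The fibroblast sum runs from 5283.3 to 9149.7 in control and from 7947.5 to 13627 in Prmt5-null libraries, and library 10617 has the highest value of both that sum and Tnfsf13b.

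Upstream of the members, the receptors were lower or did not pass. Of 6 ligand and receptor genes 5 were tested; none was higher and Tnfrsf13b was lower at an adjusted p below 0.05, beside 7.33% of all tested genes lower. Tnfrsf13b encodes TACI, a receptor for BAFF and APRIL, and gave 4846, 4736, 4576 and 4759.6 in Prmt5-null against 6036, 6418, 6794 and 5713 in control libraries, without overlap (log2 -0.40 ± 0.07, SE, limma adjusted p = 0.0042). Cd40 gave 4283, 3766, 4299.8 and 3223 against 4045, 5511, 4988 and 5216. Control CTRL-10650 fell within the Prmt5-null values, and the difference of -0.34 ± 0.12 (log2, SE) did not pass (limma adjusted p = 0.070), although it did without that library (adjusted p = 0.029). Tnfrsf13c, the BAFF receptor, differed by -0.23 ± 0.09 (log2, SE, limma adjusted p = 0.12).

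The ligand transcripts were scarce. Tnfsf13b, which encodes BAFF, gave 96.3, 39.8, 62.8 and 41.1 in Prmt5-null and 32.3, 39.2, 30.5 and 40.3 in control libraries, with overlap (log2 0.65 ± 0.29, SE, limma adjusted p = 0.16). Cd40lg averaged 14.3 ± 4.94 and 9.03 ± 2.74 normalized counts (SD, n = 4 each, limma adjusted p = 0.33). Whether feeder transgene reads contribute to either gene was not tested. Tnfsf13, which encodes APRIL, had a mean under the filter.

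Of 24 adaptor and kinase genes, 2 (8.33%) were higher and none lower at an adjusted p below 0.05, close to the 6.51% of all tested genes that were higher. Traf1, a TRAF adaptor that is itself an NF-kB target, gave 12396, 8735, 12064 and 8787 in Prmt5-null against 7682, 7288, 6792 and 8040.1 in control libraries. Its Prmt5-null values formed a high pair (10617 and 10770) and a pair just over the controls (log2 0.48 ± 0.12, SE, limma adjusted p = 0.023). Tab1, an activator subunit of the TAK1 kinase, averaged 1369 ± 82.1 against 1094 ± 50.9 (SD, n = 4 each), without overlap (log2 0.32 ± 0.08, SE, limma adjusted p = 0.021). Without library 10617 neither passed (limma adjusted p = 0.065 for Traf1 and 0.061 for Tab1). Over 17 alternative fits Traf1 missed 0.05 in 4, of which 3 left out 1 library. Tab1 missed it in 3, each leaving out 1 library. The median log2 fold change over the 24 genes was 0.00.

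Among the pathway genes that passed the test, Tnip3 had the largest change. Of 16 other regulators tested, 3 were higher (Tnip3, Ikbke and Tax1bp1) and 1 lower (Itch), with a median log2 fold change of 0.15, beside 6.51% of all tested genes higher and 7.33% lower. Tnip3 encodes ABIN-3, an A20-binding inhibitor, and gave 569, 615, 679 and 617 in Prmt5-null against 293, 267, 248 and 277 in control libraries. All 4 Prmt5-null values were far above the controls, a 2.28-fold difference (log2 1.19 ± 0.11, SE, limma adjusted p = 6.55e-05). Ikbke, an IKK-related kinase, averaged 3856 ± 847 against 2610.3 ± 424 (SD, n = 4 each) with overlap through library 10770 (log2 0.55 ± 0.16, SE, limma adjusted p = 0.037; 0.10 without CTRL-10650). Itch, a ubiquitin ligase that works with A20, averaged 4548 ± 436 against 5796 ± 194 (log2 -0.35 ± 0.08, SE, limma adjusted p = 0.012). Tax1bp1, an A20 cofactor, was 1.22-fold higher (limma adjusted p = 0.013). Tax1bp1 lies outside the rule for named genes and was added after its value was seen. Other A20 partners of the list did not pass: Tnip1 (limma adjusted p = 0.13), Tnip2 (0.34) and Rnf11 (0.85).

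Known NF-kB target genes included some that rose and some that fell. Of 30 tested, 6 were higher (Icam1, Cd80, Fas, Bcl2a1a, Bcl2a1b and Traf1) and 4 lower (Lta, Slc2a6, Tnf and Junb), with a median log2 fold change of 0.09. Traf1 is also counted among the adaptors above, and Fas is also among the germinal center markers. The shares over all tested genes were 6.51% higher and 7.33% lower. Among the 10 that passed, the 3 with the largest change were all lower. Lta, which encodes lymphotoxin-α, gave 1014, 1015, 671 and 829.5 in Prmt5-null against 1372, 1409.5, 1605 and 1351 in control libraries (log2 -0.72 ± 0.13, SE, limma adjusted p = 0.0040). Slc2a6, a glucose transporter family member, averaged 1993 ± 324 against 3116 ± 266 (log2 -0.66 ± 0.12, SE, limma adjusted p = 0.0033). Tnf, which encodes the cytokine TNF, averaged 560.4 ± 90.2 against 863 ± 90.2 (log2 -0.63 ± 0.13, SE, limma adjusted p = 0.0078). None of these 3 overlapped between genotypes, beside 10.2% of all genes lower without overlap. They were picked as the largest changes that passed the test, so their separation is not a further result. Bcl2a1a and Bcl2a1b belong to a family of near-identical copies, so their separate counts are uncertain.

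The genes whose pattern over the 8 libraries was most like that of the 2 leading members were also higher in Prmt5-null iGBs. That direction follows from the selection, because both members separate the genotypes. For Tnfaip3 these were Aplp2 (Pearson r = 0.991 on log2 counts), Gas2l1 (0.988) and Ttc30a1 (0.987), with log2 differences of 0.37, 1.25 and 0.63. For Nfkbia they were Rpusd4 (r = 0.992), Bckdhb (0.987) and Eif4b (0.985), with log2 differences of 0.67, 0.60 and 0.50. These correlations describe 8 points that fall into the 2 genotypes, and are not tested.

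Splicing was read from the authors' rMATS tables, which hold only events they kept for a difference between these same libraries, so the differences are descriptions. Each genotype has 4 values per event, without library names. Of the 10 members only Relb had an event (2 events), beside 11.4% of the 13300 genes with a mean above 50. The first was an alternative 5′ splice site that adds 58 bases (GRCm38 chr7:19617704-19617761), a long form annotated in GENCODE only in the non-coding transcript Relb-208. Its inclusion levels were 0.732, 0.577, 0.405 and 1.0 in control and 0.405, 0, 0 and 0.254 in Prmt5-null iGBs. They rested on 2 to 10 reads per library, 36 in all, and the genotypes met at 0.405. The second was a skipped exon (chr7:19611817-19611925, 109 bases). With these bounds it is also annotated only in Relb-208, though it overlaps annotated coding bases. Its levels were 0.784, 0.736, 0.97 and 0.961 in control and 0.938, 0.962, 0.966 and 1.0 in Prmt5-null iGBs, on 40 to 75 reads per library. The genotypes overlapped, and inclusion averaged 0.863 and 0.966. Neither is thus a clear separation of Relb isoforms.

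Among the other pathway genes with a mean above 50, 10 of 68 (14.7%) had an event, near the share of all genes. The largest difference was a skipped exon of Tank (chr2:61629285-61629372, 88 bases), whose product is a TRAF-binding regulator. Its levels of 0.539, 0.664, 0.401 and 0.483 in control and 0.226, 0.305, 0.147 and 0.055 in Prmt5-null iGBs rested on 12 to 35 reads per library, and the exon is annotated in the non-coding Tank-208. An intron of Ikbkb, which encodes IKKβ, followed (chr8:22669097-22671630, 2534 bases). Its retention was 0.386, 0.599, 0.518 and 0.629 in control and 0.801, 0.793, 0.731 and 0.899 in Prmt5-null iGBs, on 232 to 914 reads per library. Most of those reads were of the retained form, 1448 over all control and 2458 over all Prmt5-null libraries. Only 59 and 27 were of the spliced form, so the levels rest on few spliced reads. The third was a Cd44 skipped exon (chr2:102834234-102834335, 102 bases), with mean inclusion of 0.636 and 0.868 on 9 to 27 reads per library.

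Cd40 is described although its events lie outside the rule for named genes, and was chosen after its values were seen. The intron at chr2:165069716-165069816 (101 bases), which follows an 87-base exon of the coding transcripts, was retained at 0.097, 0.085, 0.099 and 0.147 in control and 0.259, 0.234, 0.168 and 0.274 in Prmt5-null iGBs, on 239 to 429 reads per library. The groups did not overlap, and the retaining transcript Cd40-207 is annotated as subject to nonsense-mediated decay. The other Cd40 events were lower without Prmt5, also without overlap. The long form of an alternative 3′ splice site (chr2:165069629-165069816, 188 bases), annotated in Cd40-207 too, averaged 0.929 in control and 0.81 in Prmt5-null iGBs. Its 188 bases span both the 87-base exon and the 101-base intron. Reads from transcripts that hold the exon but have the intron removed can count towards it. That level is therefore not the level of Cd40-207. The 87-base exon, as part of a mutually exclusive pair, averaged 0.284 and 0.163. The total Cd40 count did not pass the test (above). The 5′ splice sites of both retained introns are shown because retention means that they were not used. They are given as 10 exon bases in capitals and 20 intron bases in lower case, from the GENCODE transcripts that read across them.
Ikbkb, chr8:22671611-22671640, minus strand: AGCTGTATCCgtaagtgcatcatttattaa
Cd40, chr2:165069706-165069735, plus strand: CTCTATATCAgtgagtgctcaggagaggaa
The Ikbkb count itself was 5461, 7176, 3554 and 4931 in Prmt5-null and 4628, 5437, 5986 and 5678 in control libraries, with overlap (limma adjusted p = 0.80).

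**Figure D5:**
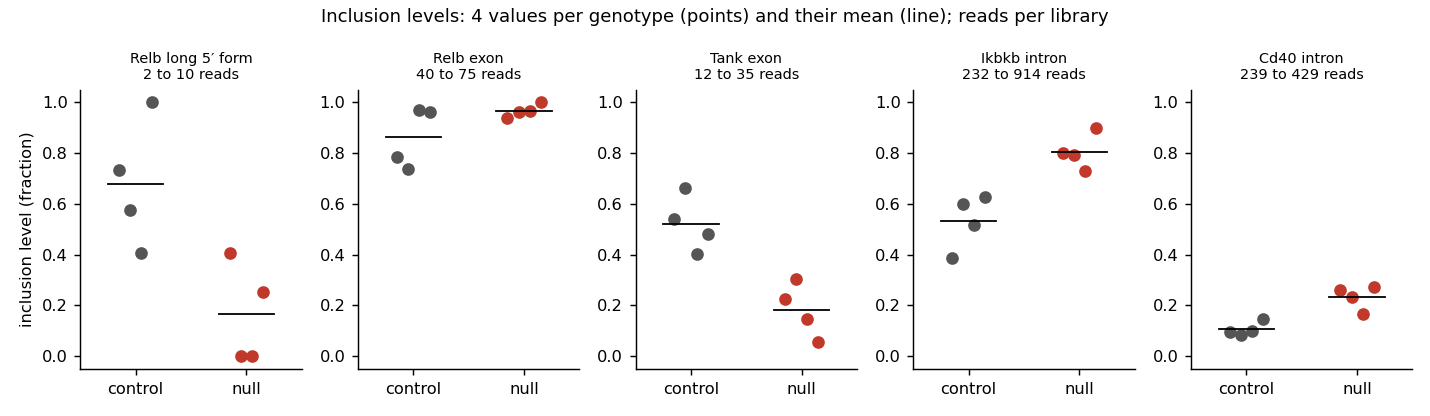
Inclusion level (fraction of transcripts with the long form, exon or intron) in 4 control (grey) and 4 Prmt5-null (red) values per event, with their mean as a line and the lowest and highest number of reads per library above each panel. Relb overlaps between genotypes and its long form rests on 2 to 10 reads, while the Ikbkb and Cd40 introns rest on over 200 reads per library and do not overlap. Of the Ikbkb reads, only 59 over all control and 27 over all Prmt5-null libraries were of the spliced form.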

How the data were processed

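RNA was rRNA-depleted, and libraries were made with a stranded kit and sequenced as read pairs. Per the labels, each genotype had 4 independent biological samples. The authors trimmed reads with Trimmomatic 0.32, aligned them to mm10 (GRCm38) with STAR 2.3.0e, counted unique reads on Ensembl genes with featureCounts 1.4.4 and divided by DESeq2 1.14.1 size factors. The deposited gene values are this normalized signal, one column per library. Multi-mapping reads were thus left out, which lowers near-identical genes. The authors' rMATS tables, made from untrimmed reads, hold inclusion levels as fractions, read counts and their own p-values and level differences. These p-values and differences were not used. The first list was taken as control from the order the study gives and from the floxed Prmt5 exon. Inclusion of that exon averaged 0.996 in the first list and 0.196 in the second, where it was mostly but not wholly skipped.

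The log2(normalized count + 1) values of genes with a mean of at least 10 were fitted with limma 3.58.1 (R 4.3.3; two-sided, intensity trend, Benjamini-Hochberg over 16250 genes). Calls needed at least a 1.5-fold change together with an adjusted p under 0.05. Whole reads were recovered from the steps of the values (within 0.01 of whole) and tested with edgeR 4.0.16 and DESeq2 1.42.0. Other alternatives were the pseudocount, the filter, quantile normalization, no trend, the side of the second principal component as a block, and leaving out each library. The fit was tested on simulated data. Gene lengths came from GENCODE M21, promoters from RefSeq. Members and gene lists were chosen with earlier results of these data known. Named genes were the members, Prmt5, CD40 and BAFF ligands and receptors, the 3 largest changes per list at an adjusted p below 0.05, the 3 largest splicing differences, and the 3 genes most correlated with each of the 2 leading members.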

Additional observations from a re-analysis of the deposited data

How the results depend on the processing

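Tnfaip3 and Nfkbia were higher, at an adjusted p below 0.05, in all 17 alternatives (log2 0.61 to 0.70 and 0.53 to 0.67). Nfkbie was higher in all 17 but missed that threshold in 7, 6 of them leaving out 1 library (adjusted p up to 0.086), the other without the intensity trend (0.069). Members called ranged from 1 to 2 when 1 library was left out, and stayed at 2 otherwise. Genes called ranged from 795 to 1277 (edgeR 1091, DESeq2 1277). No direction can be read for 3 subunits. Leaving out 1 library gave log2 differences of -0.12 to 0.04 for Rel, -0.045 to 0.10 for Rela and -0.027 to 0.075 for Relb.

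Ligands and receptors lower were 2 with DESeq2, Cd40 being added (adjusted p = 0.040), and 1 to 2 leaving out 1 library. Adaptors and kinases higher were 1 without the trend and 0 to 3 leaving out 1 library; those lower were 1 with DESeq2, 1 with the block, and 0 to 1 leaving out 1 library. Other regulators higher were 1 to 3 leaving out 1 library, and targets higher 3 without the trend and 3 to 8 leaving out 1 library. The causes were not tested. Control levels per kb on the longest transcript were 7302 for Nfkb1, 4197 for Nfkb2, 849.5 for Rela, 588 for Relb, 521 for Nfkbib, 1092 for Tnfaip3 and 334 for Bcl3, each from the shorter length. Junction reads alone left the Relb differences at -0.51 and 0.10; with at least 20 reads in each library only the skipped exon remains.

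No paired analysis was possible because the genotypes share no replicate number in the library titles. With 4 libraries per genotype the precision was lowest for Bcl3, whose 95% interval on the log2 scale ran from -0.17 to 0.56.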
